A study of Mus musculus with 8 samples.

Results

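The HOX cluster genes are the homeobox genes that give cells of the embryonic trunk and limbs their address along the body axis. They were taken as every gene of the Hoxa, Hoxb, Hoxc and Hoxd families, and 33 of the 39 listed for the mouse had a probe set that names that gene alone, out of 18193 genes measured. The others were not analysed here. Each gene is represented by its probe set with the highest mean over all arrays. The cells were mouse embryonic fibroblasts, connective tissue cells grown out of embryos, from C57BL/6 mice. They were either homozygous Cebpg mutants (Cebpg-/-, 4 samples) or wild type (WT, 4 samples), and Cebpg encodes C/EBPγ, a basic leucine zipper transcription factor. Both genotypes were isolated from E13.5 embryos, kept in serum-containing medium, seeded at the same density at passage 3, and harvested after 48 hours, and RNA of each sample went onto 1 Affymetrix array. The labels call the samples biological replicates without naming embryos, pools or the body regions used, so the p-values cover only the spread among these samples.

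HOX genes lie in 4 clusters on separate chromosomes, and genes at the same place in different clusters, called paralogues, share a number. Genes of low number act towards the head and those of high number towards the tail and the tips of the limbs. Their protein products bind DNA together with cofactors of the TALE homeobox class. Polycomb proteins keep clusters silent and Trithorax proteins keep them active, and retinoic acid and caudal factors help to switch them on. Fibroblasts in culture are known to keep the HOX pattern of the site they were taken from. Paralogue groups 1 to 3 are called anterior here, 4 to 8 central and 9 to 13 posterior.

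Promoter sequence was looked at for the measured members because the targeted gene encodes a DNA-binding factor. A further reason was the posterior gene Hoxd13, which varied most within genotypes (SD 0.65). The median SD was 0.16 for posterior and 0.15 for central members. RefSeq promoter entries (assembly GRCm38.p6, 250 bases before the annotated start to 50 after it) existed for 19 measured HOX genes, with 21 promoters. Hoxb2, the only HOX gene that passed the main test reported below, had no such entry, so its promoter was not searched. The same holds for the other measured HOX genes without an entry. The 21 HOX promoters had a median GC content of 58.0%, against 52.67% over all 32851 promoters. They held a median of 15 CpG dinucleotides, against 7. The C/EBP dimer site TTGCNNAA, searched on both strands, stood in 5 of 21 HOX promoters (23.8%), against 10.8% of all promoters. These 5 promoters belong to 4 genes, Hoxa10, Hoxc4, Hoxd11 and Hoxd12, because a gene with several promoters is counted more than once. The letters TGATGNAA, the core of a composite site for C/EBP and ATF factors, stood in 0 of 21, against 3.97% of all promoters. The letters TGATNNAT, bound by HOX and PBX proteins together, stood in 3 (14.3%, against 8.85%), those of Hoxa2, Hoxb1 and Hoxd11. TATAAA stood in 2 (9.52%, against 13.6%), those of Hoxa10 and Hoxd13. These matches describe letters in a window and were not tested, and no binding was measured. The following 4 promoters are shown because Hoxd13 and Hoxd10 had the widest spread between arrays for their level class and Hoxc4 and Hoxa10 hold a C/EBP match. All are written from 5′ to 3′ on the strand of the gene, and capitals mark matches to TATAAA in Hoxd13, to TTGCNNAA in Hoxc4 and to both in Hoxa10, on either strand. Hoxd13 holds TATAAA on both strands as overlapping matches, and Hoxd10 holds none of the 4 motifs.
Hoxd13, chr2:74667975-74668274, plus strand: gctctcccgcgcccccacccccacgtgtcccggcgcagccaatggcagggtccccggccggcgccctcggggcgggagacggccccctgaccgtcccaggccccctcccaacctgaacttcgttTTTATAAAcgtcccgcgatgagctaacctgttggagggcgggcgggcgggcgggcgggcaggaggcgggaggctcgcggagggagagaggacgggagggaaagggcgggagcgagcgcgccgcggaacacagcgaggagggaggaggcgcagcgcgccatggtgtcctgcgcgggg
Hoxd10, chr2:74691641-74691940, plus strand: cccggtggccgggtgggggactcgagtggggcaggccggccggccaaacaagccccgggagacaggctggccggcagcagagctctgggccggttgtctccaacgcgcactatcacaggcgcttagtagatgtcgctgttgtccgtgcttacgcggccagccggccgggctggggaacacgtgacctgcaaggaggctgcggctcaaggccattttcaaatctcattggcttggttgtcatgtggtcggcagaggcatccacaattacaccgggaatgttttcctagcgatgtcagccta
Hoxc4, chr15:103034145-103034444, plus strand: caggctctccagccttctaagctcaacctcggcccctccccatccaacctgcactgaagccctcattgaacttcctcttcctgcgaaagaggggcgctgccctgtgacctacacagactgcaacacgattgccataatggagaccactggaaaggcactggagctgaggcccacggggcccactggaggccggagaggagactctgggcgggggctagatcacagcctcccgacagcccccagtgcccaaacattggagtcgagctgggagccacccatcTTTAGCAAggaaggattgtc
Hoxa10, chr6:52234890-52235189, minus strand: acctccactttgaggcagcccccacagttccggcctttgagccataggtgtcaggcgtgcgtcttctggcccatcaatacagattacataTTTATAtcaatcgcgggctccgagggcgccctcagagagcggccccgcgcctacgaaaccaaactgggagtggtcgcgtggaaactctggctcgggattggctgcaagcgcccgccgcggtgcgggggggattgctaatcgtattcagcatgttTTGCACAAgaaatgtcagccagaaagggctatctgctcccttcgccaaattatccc
The Hoxd13 promoter has a GC content of 74.3% with 37 CpG dinucleotides, and that of Hoxc4 has 60.3% with 9.

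Values are expression values on the log2 scale, so 1 unit is a 2-fold difference. They depend on the probes, so levels of different genes were not ranked. The array medians lay between 2.70 and 2.76, and pairs of arrays correlated at 0.989 to 0.997 over all probe sets. A second Cebpg probe set read 5.42, 5.69, 5.44 and 5.57 in Cebpg-/- samples, against 6.29, 6.23, 6.32 and 6.41 in WT samples (change -0.78, limma adjusted p over probe sets 0.000593), while the brightest one differed by -0.17 (limma adjusted p over probe sets 0.275) and the remaining, dim one by 0.26 (limma adjusted p over probe sets 0.0942). All 17 fibroblast markers were above background, with array means of 9.28 to 9.60 in Cebpg-/- samples and 9.66 to 9.84 in WT samples, and 9 of them were lower in Cebpg-/- cells, against 3.99% of all genes. Leukocyte and macrophage markers were also present. Their mean over 18 genes was 7.69, 5.03, 6.97 and 6.61 in Cebpg-/- samples 1 to 4, against 3.67, 5.53, 5.43 and 5.59 in WT samples 1 to 4. The lowest array was WT replicate 1 and the highest Cebpg-/- replicate 1, and the genotypes overlapped. In RNA of whole cultures, fewer cells of a type and less RNA per cell cannot be told apart. WT replicate 1 read high for both the X-inactivation transcript Xist (7.81) and the Y-linked Eif2s3y (6.26), whereas each of the other 7 arrays read high for 1 of them. Xist was high in Cebpg-/- replicates 1 and 2 and WT replicate 2, and Eif2s3y in Cebpg-/- replicates 3 and 4 and WT replicates 3 and 4, so the arrays of a genotype do not all come from embryos of 1 sex. Of the other marker lists, 1 of 18 leukocyte genes was called higher, as were 1 of 9 endothelial and 1 of 11 epithelial genes, against 8.62% of all genes. The median change of the leukocyte genes was nevertheless 1.58, against 0.07 for the endothelial genes. At an unadjusted limma p under 0.05 stood 15 of the 18 leukocyte genes, against 28.4% of all genes. In turn 1 epithelial gene and 1 of 10 neuronal genes were called lower, with 0 called of 5 neural crest and glial, 10 skeletal muscle, 8 cartilage and bone and 4 sex-linked genes. Of the 34 genes of absent tissues that set the background limit used below, 1 was higher.

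Most of the HOX code of these fibroblasts did not pass the test for a difference between the genotypes. Of 33 HOX genes, 0 were higher and 1, Hoxb2, was lower in Cebpg-/- cells at a limma adjusted p under 0.05, against 8.62% of all genes called higher and 3.99% called lower. At an unadjusted p under 0.05 the count was also 1 of 33, against 28.4% of all genes. This count depends on the choice of probe set. Less bright probe sets of Hoxb3, Hoxa10, Hoxa4 and Hoxa9 had an unadjusted limma p of 0.00608, 0.0110, 0.0223 and 0.0467. Each read lower in Cebpg-/- samples, those of Hoxa10 and Hoxa4 were dim, and none passed after adjustment over probe sets. The changes lay above 0 for 16 members and below 0 for 17, with a median of -0.02, against -0.00 over all genes. The 4 Cebpg-/- values lay apart from all 4 WT values for 1 member, Hoxb2, below WT, and for 0 above WT, against 6.74% and 12.8% of all genes. The mean of all 33 members was 4.25, 4.26, 4.27 and 4.14 on Cebpg-/- arrays 1 to 4, against 4.15, 4.28, 4.17 and 4.25 on WT arrays 1 to 4, and the genotypes overlapped.

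A value was called dim when its mean over the 8 arrays lay under 4.08. This limit is the 95th percentile of 34 genes of tissues absent from a fibroblast culture, such as insulin and rhodopsin. Of these 34 genes 2, Mbp and the insulin gene Ins2, lay above it themselves. By this rule 19 HOX genes were above background and 14 were dim, and a dim probe set does not show that its gene is silent. The members above background were 5 of 9 in cluster A, 5 of 9 in cluster B, 6 of 7 in cluster C and 3 of 8 in cluster D. By position along the axis they were 2 of 7 anterior, 9 of 12 central and 8 of 14 posterior genes.

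**Figure D1:**
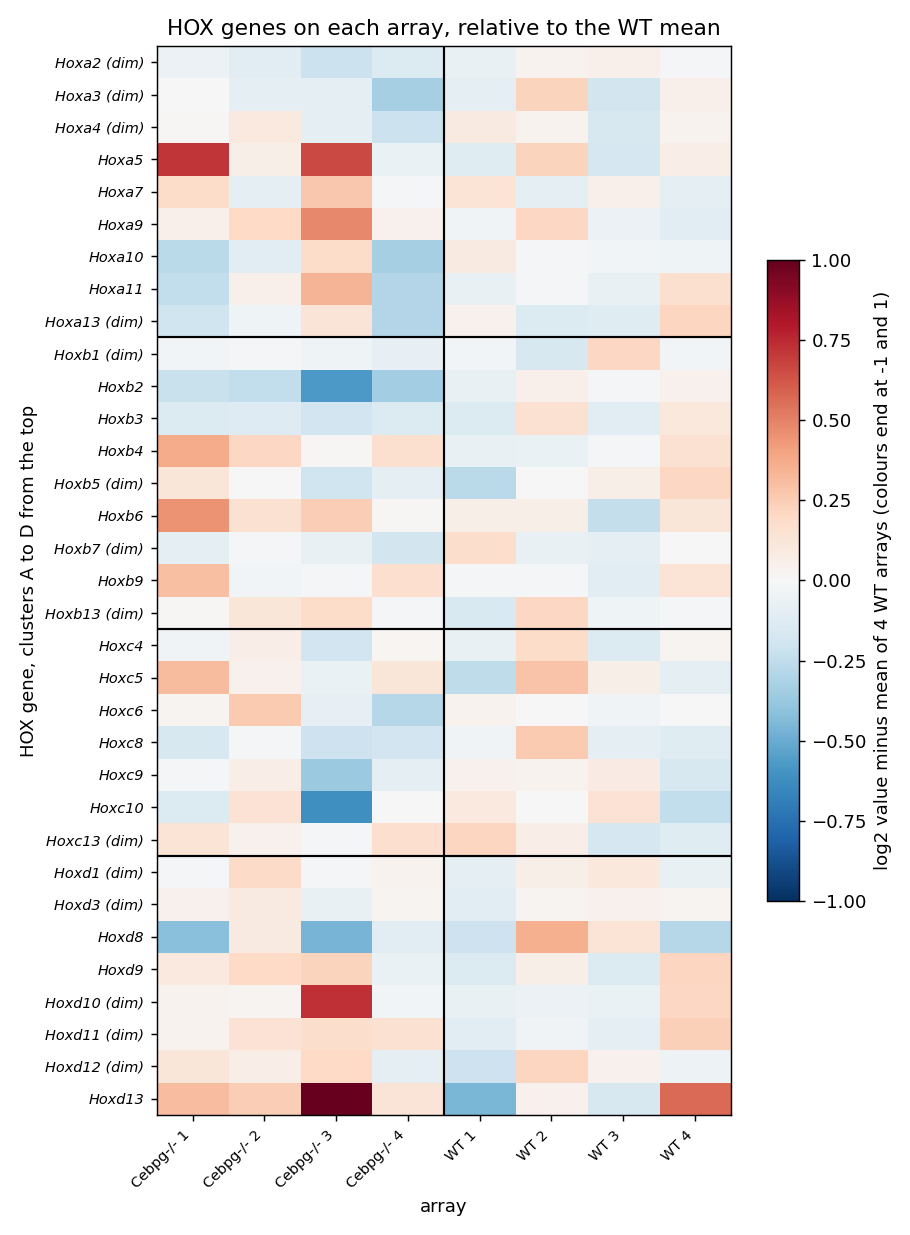
Each row is a HOX gene, ordered by cluster and paralogue number, and each column an array, Cebpg-/- left of WT. Colour is the log2 value minus that gene's mean over the 4 WT arrays, with colours ending at -1 and 1, and Hoxd13 on Cebpg-/- replicate 3 lies past the upper end.

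The interval around each change shows what size of difference these arrays leave room for. The 95% confidence interval lay within 1 log2 unit on either side of 0 for 18 of 19 HOX genes above background (94.7%), against 95.8% of all genes above background. It lay within 0.5 log2 units, which is 1.41-fold, for 15 of 19 (78.9%), against 81.2%. The 4 members whose intervals reached past 0.5 were Hoxb2, which lay away from 0, and Hoxa5, Hoxd8 and Hoxd13. Among the 14 dim members the interval lay within 1 unit for all 14 and within 0.5 units for 13, where RMA values of dim probe sets are compressed. The spread within a genotype was wider for HOX genes than for most genes. Its median SD was 0.163 over the 19 members above background, against 0.0985 over all genes above background, while the median size of the change was 0.143 against 0.135.

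**Figure D2:**
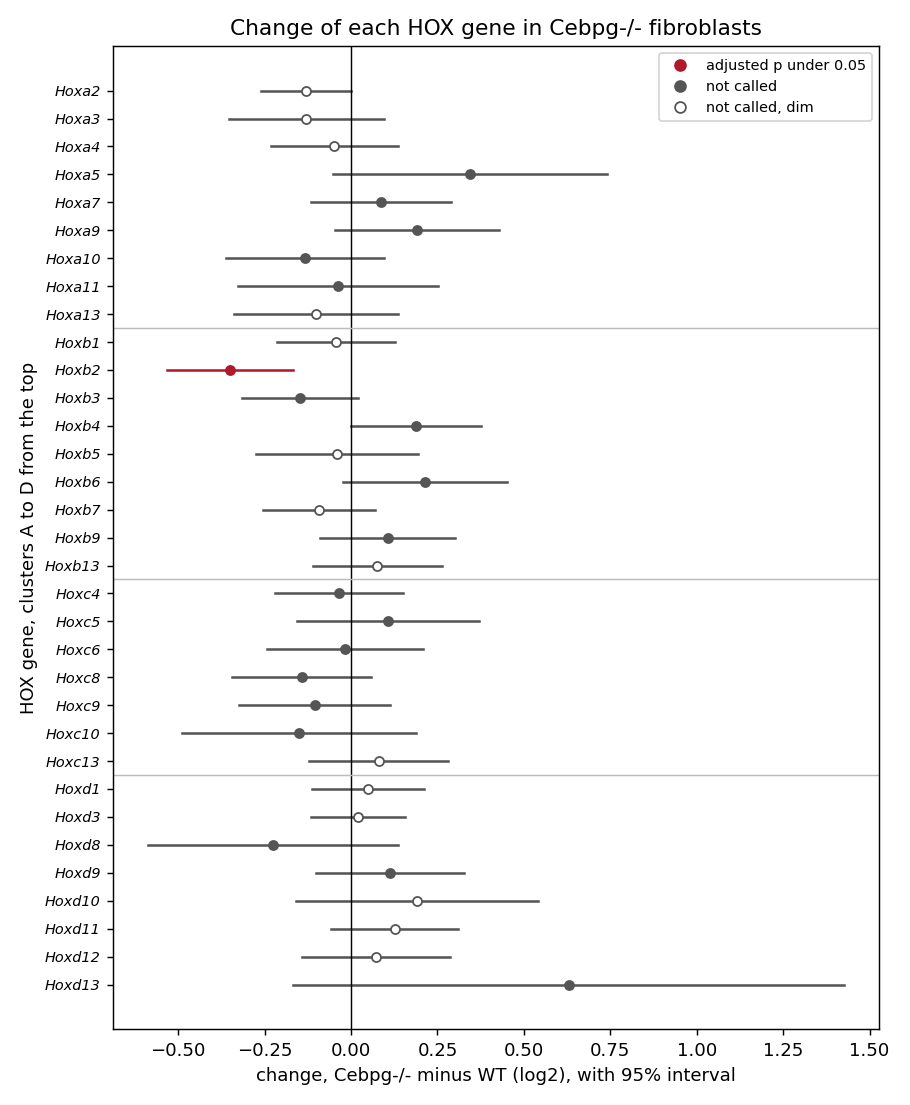
Points give the change of each HOX gene, Cebpg-/- minus WT, on the log2 scale, open where the gene is dim, and lines its 95% confidence interval from limma. Of the 33 genes, Hoxb2 (-0.35) alone passed the test, and the interval of Hoxd13 ran from -0.17 to 1.43.

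Anterior genes pattern the hindbrain, the pharyngeal arches and the neck. Their median change was -0.13, over 7 genes of which 5 were dim. Hoxb2, a regulator of hindbrain segments, read 6.28, 6.26, 5.93 and 6.16 in Cebpg-/- samples 1 to 4, against 6.43, 6.56, 6.49 and 6.55 in WT samples 1 to 4. All Cebpg-/- values lay below all WT values, with replicate 3 the lowest. Its change of -0.35 (95% confidence interval -0.53 to -0.17, limma adjusted p 0.0219) puts Cebpg-/- cells at 78.5% of the WT level. The call rests on 1 probe set, and without Cebpg-/- replicate 4 the limma adjusted p was 0.0531 (change -0.35) and without WT replicate 3 it was 0.0514 (-0.36). With the leukocyte marker mean added as a covariate, the change was -0.36 with a limma adjusted p of 0.157.

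Hoxb3, which acts in the hindbrain and pharyngeal arches and lies next to Hoxb2, read 5.82, 5.83, 5.77 and 5.82 in Cebpg-/- samples, against 5.81, 6.10, 5.84 and 6.06 in WT samples. The genotypes overlapped through WT replicate 1, and the change of -0.15 did not pass (limma adjusted p 0.230). A second, dimmer-reading probe set gave 4.14, 4.17, 3.98 and 4.14 in Cebpg-/- samples, against 4.28, 4.25, 4.55 and 4.46 in WT samples, without overlap. Its change was -0.28 with a limma adjusted p of 0.0653 over probe sets. The mean of both probe sets changed by -0.21 and passed (limma adjusted p 0.0444). The other anterior members were dim. Hoxa2, a selector of the pharyngeal arch next to the jaw arch, averaged 2.75 ± 0.07 in Cebpg-/- samples and 2.88 ± 0.06 in WT samples (SD, n = 4 each), with a limma adjusted p of 0.176. Hoxa3, needed for the thymus and parathyroid, averaged 3.39 ± 0.14 in Cebpg-/- samples and 3.52 ± 0.18 in WT samples (SD, n = 4 each). Hoxb1, Hoxd1 and Hoxd3 averaged under 2 in both genotypes.

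Central genes pattern the neck and thorax. Of 12 members 0 passed in either direction, and their median change was -0.03. Hoxa5, which is needed for the lung and the vertebrae between neck and chest, read 6.11, 5.45, 6.05 and 5.33 in Cebpg-/- samples, against 5.27, 5.62, 5.22 and 5.46 in WT samples. Cebpg-/- replicates 1 and 3 lay above every WT array and replicates 2 and 4 within their range. The change of 0.34 (95% confidence interval -0.05 to 0.74) did not pass (limma adjusted p 0.235), and its second probe set gave 0.14. Cebpg-/- replicates 1 and 3 were also the highest arrays in leukocyte markers (7.69 and 6.97). Cebpg-/- replicate 4 (6.61) lay above replicate 2 (5.03) in these markers and below it for Hoxa5. With the leukocyte marker mean as a covariate the Hoxa5 change was 0.06 (limma adjusted p 0.926). Under that covariate calls over all genes fell as well, from 1569 higher and 726 lower to 228 and 106. The part of leukocytes in the Hoxa5 values was not tested. Hoxb4, known for expanding blood stem cells, changed by 0.19 (limma adjusted p 0.177), and Hoxb6, expressed in lateral mesoderm, by 0.21 (limma adjusted p 0.219). Both groups overlapped for each of them.

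Cluster C members 4 to 8 were all above background. Hoxc8, which sets the identity of thoracic vertebrae, read 7.33, 7.49, 7.29 and 7.30 in Cebpg-/- samples, against 7.46, 7.76, 7.40 and 7.37 in WT samples (change -0.14, limma adjusted p 0.334). Hoxc4 averaged 5.38 ± 0.11 in Cebpg-/- samples and 5.41 ± 0.14 in WT samples, and Hoxc6, a thoracic gene, 5.23 ± 0.23 in Cebpg-/- samples and 5.24 ± 0.03 in WT samples (SD, n = 4 each). Hoxc5 changed by 0.11 and Hoxa7 by 0.09, both within the spread of the replicates. Hoxd8, active in the trunk, read 5.44, 5.94, 5.39 and 5.75 in Cebpg-/- samples, against 5.65, 6.21, 5.99 and 5.57 in WT samples. Its brightest probe set gave -0.23 (limma adjusted p 0.394) and the other 0.06, so the direction was not settled. Hoxa4, Hoxb5 and Hoxb7 were dim, with changes of -0.05, -0.04 and -0.09.

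**Figure D3:**
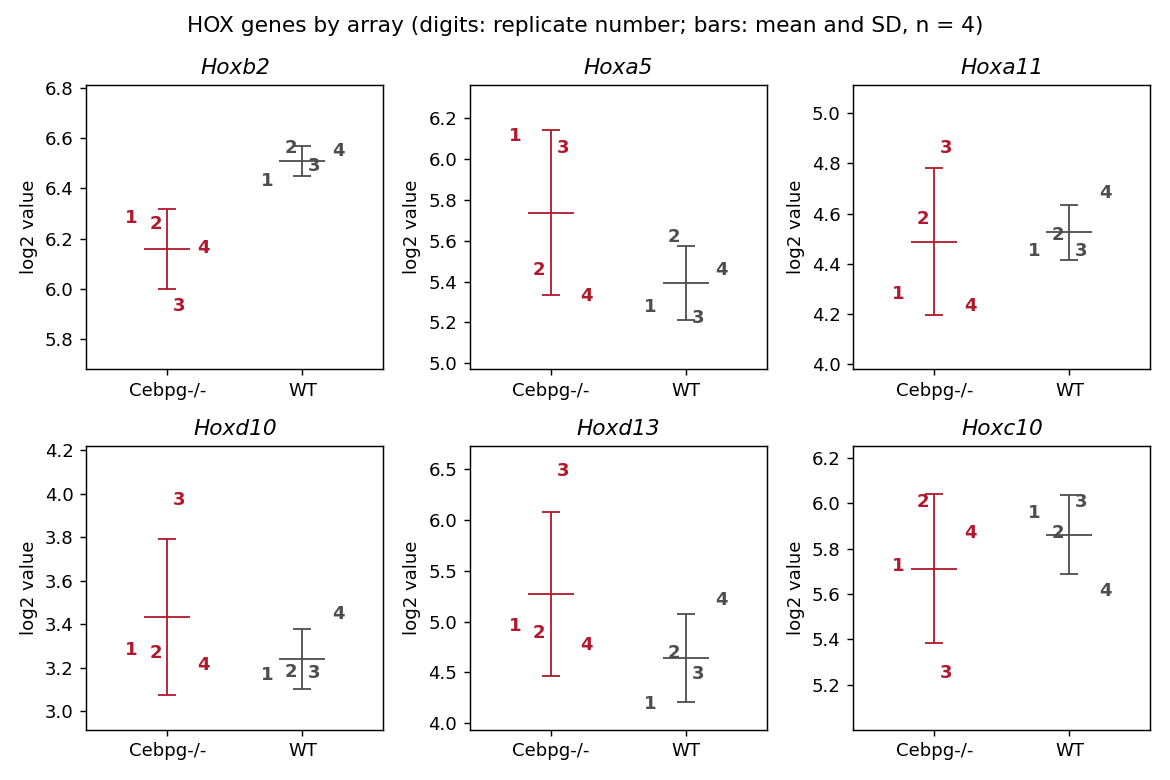
Digits are the replicate numbers of single arrays, placed at their log2 value, and bars the mean and SD (n = 4) of 6 HOX genes, Cebpg-/- left of WT. Hoxb2 shows 4 Cebpg-/- values under all WT values, and Hoxd13 shows Cebpg-/- replicate 3 at 6.48 above the other 7 arrays.

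Posterior genes pattern the lumbar and sacral trunk, the genital region and the limbs. Of 14 members 0 passed, and their median change was 0.08. Hoxd13, needed for digits and the genital tubercle, read 4.96, 4.89, 6.48 and 4.77 in Cebpg-/- samples 1 to 4, against 4.19, 4.69, 4.49 and 5.21 in WT samples 1 to 4. Cebpg-/- replicate 3 lay above every other array, and the remaining values overlapped. The change of 0.63 was the largest among HOX genes, with a 95% confidence interval from -0.17 to 1.43 and a limma adjusted p of 0.277, and it was 0.23 without Cebpg-/- replicate 3. The second Hoxd13 probe set, which is dim, read 2.37, 2.79, 3.18 and 2.58 in Cebpg-/- samples, against 2.54, 2.23, 2.60 and 2.77 in WT samples, also with Cebpg-/- replicate 3 as the highest.

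Several other posterior genes of clusters A and D were also highest on that array. Hoxd10, a limb and lumbar gene that was dim, read 3.28, 3.27, 3.97 and 3.21 in Cebpg-/- samples, against 3.16, 3.18, 3.17 and 3.45 in WT samples (change 0.19, limma adjusted p 0.461). It was highest in replicate 3 of the Cebpg-/- group and in replicate 4 of the WT group. Hoxa11, needed for the forearm and the uterus, read 4.28, 4.58, 4.86 and 4.23 in Cebpg-/- samples, against 4.45, 4.52, 4.45 and 4.68 in WT samples (change -0.04). Hoxa10, a gene of the lumbar spine and uterus, read 5.11, 5.26, 5.56 and 5.04 in Cebpg-/- samples, against 5.46, 5.36, 5.35 and 5.33 in WT samples (change -0.13). For Hoxa10 the Cebpg-/- samples lay on both sides of the WT range.

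Hoxa9, a gene of the lower thorax and blood progenitors, read 6.48, 6.63, 6.91 and 6.48 in Cebpg-/- samples, against 6.40, 6.64, 6.37 and 6.32 in WT samples. The change was 0.19 on this probe set and -0.23 on the other, neither of which passed. Hoxb9, active in the thorax, averaged 6.06 ± 0.16 in Cebpg-/- samples and 5.96 ± 0.10 in WT samples (SD, n = 4 each). Hoxc10, a hindlimb and lumbar gene, read 5.72, 6.00, 5.25 and 5.87 in Cebpg-/- samples, against 5.96, 5.87, 6.00 and 5.61 in WT samples (change -0.15, limma adjusted p 0.556). Hoxc9, a lower thoracic gene, read 5.81, 5.90, 5.46 and 5.74 in Cebpg-/- samples, against 5.87, 5.87, 5.91 and 5.67 in WT samples. In both, the lowest array of all 8 was Cebpg-/- replicate 3. Hoxd9 averaged 4.38 ± 0.13 in Cebpg-/- samples and 4.27 ± 0.17 in WT samples (SD, n = 4 each). Hoxa13, Hoxb13, Hoxc13, Hoxd11 and Hoxd12 were dim, with changes between -0.10 and 0.13.

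By cluster the medians were -0.05 for A, -0.04 for B, -0.04 for C and 0.09 for D. Cluster D had 7 of 8 changes above 0, of which 0 passed, and its array means ran from 3.18 to 3.50 in Cebpg-/- samples and from 3.00 to 3.28 in WT samples. Cluster C had array means from 5.37 to 5.67 in Cebpg-/- samples and from 5.48 to 5.71 in WT samples. The means of the other clusters and of each axis class also overlapped.

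Several arrays differed from their own group in some HOX genes. Cebpg-/- replicate 3 was set against the mean of the other 3 Cebpg-/- arrays, a contrast chosen after its values were seen. It lay above them by 1.61 for Hoxd13, 0.72 for Hoxd10, 0.50 for Hoxa11, 0.42 for Hoxa10 and 0.38 for Hoxa9. All 7 cluster C genes lay below, by 0.61 for Hoxc10 and 0.36 for Hoxc9. Counting differences past 0.5 units, 3 HOX genes lay above and 1 below, against 0.962% and 0.418% of all genes. This array was also the highest of the 8 for 7 HOX genes and the lowest for 8, against 9.64% and 13.1% of all genes. Other arrays reached like counts: Cebpg-/- replicate 4 was lowest for 7 (8.96% of all genes), WT replicate 1 lowest for 11 (13.6%) and WT replicate 2 highest for 8 (15.1%). Past 0.5 units, Cebpg-/- replicate 4 had 0 HOX genes above and 2 below its group, against 0.632% of all genes in either direction. Cebpg-/- replicate 2, WT replicate 1 and WT replicate 4 had 1 each, against 3.3%, 1.12% and 2.93%. Hoxd13 was that gene on each of them, and was 1 of the 2 on Cebpg-/- replicate 4. For Cebpg-/- replicates 2 and 4 the mean it was set against includes replicate 3. Hoxd13 read 4.96, 4.89 and 4.77 on Cebpg-/- replicates 1, 2 and 4, against 6.48 on replicate 3.

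The same values of the posterior genes were averaged cluster by cluster, which adds no separate evidence on Cebpg-/- replicate 3. For the 5 posterior cluster D genes, of which 3 were dim, the array means were 3.45, 3.47, 3.96 and 3.34 in Cebpg-/- samples. In WT samples they were 3.13, 3.37, 3.24 and 3.56. The high mean of Cebpg-/- replicate 3 came mostly from Hoxd13 and Hoxd10. Hoxd9, Hoxd11 and Hoxd12 lay only 0.15, 0.07 and 0.17 above the mean of the other 3 Cebpg-/- arrays. For the 4 posterior cluster A genes they were 4.40, 4.59, 4.85 and 4.35 in Cebpg-/- samples, against 4.57, 4.58, 4.49 and 4.62 in WT samples. For the 3 posterior cluster C genes they were 4.93, 5.02, 4.60 and 4.96 in Cebpg-/- samples, against 5.06, 4.98, 4.96 and 4.76 in WT samples. High posterior D went with low posterior C on Cebpg-/- replicate 3 and, to a smaller extent, on WT replicate 4. There they lay 0.31 above and 0.24 below the mean of the other 3 WT arrays. The 2 posterior cluster B genes lay at 4.07, 3.96, 3.99 and 3.99 in Cebpg-/- samples, against 3.83, 4.01, 3.84 and 3.98 in WT samples, with no such step. Other arrays moved cluster by cluster as well. All 9 cluster A genes of Cebpg-/- replicate 4 lay below the mean of the other 3 Cebpg-/- arrays. All 8 cluster D genes of WT replicate 1 lay below the mean of the other 3 WT arrays.

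**Figure D4:**
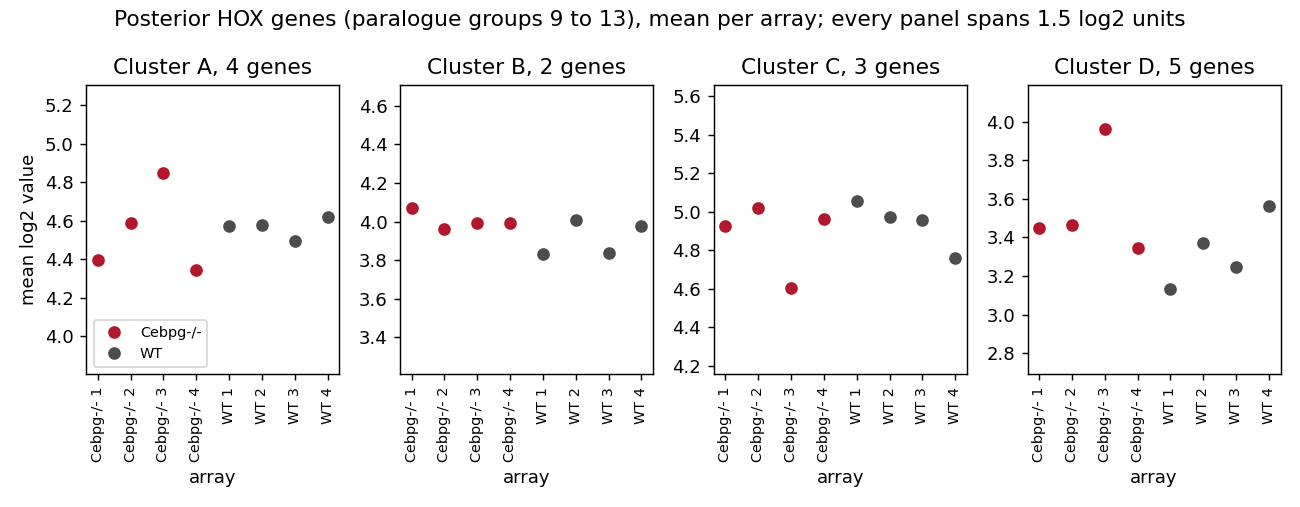
Points give the mean log2 value of the posterior genes of each cluster on each array, Cebpg-/- arrays left of WT arrays. Cebpg-/- replicate 3 reads 4.85 in cluster A and 3.96 in cluster D, the highest of the 8 arrays, and 4.60 in cluster C, the lowest.

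Genes that mark limb and cartilage were read beside Cebpg-/- replicate 3, also chosen after their values were seen. Tbx4, a factor of the hindlimb, read 2.51, 3.79, 4.74 and 3.13 in Cebpg-/- samples, against 3.06, 2.65, 2.76 and 3.13 in WT samples, and Pitx1, another hindlimb factor, 2.84, 3.45, 3.84 and 3.18 in Cebpg-/- samples, against 3.46, 3.27, 3.61 and 3.30 in WT samples. Both were dim on average and highest on Cebpg-/- replicate 3. Tbx5, the forelimb factor, lay at 2.90 on this array and between 2.80 and 3.10 on the other Cebpg-/- arrays. Shox2, another limb factor, was lowest of the 8 arrays on Cebpg-/- replicate 3, at 6.61. Hand2, Prrx2 and Prrx1 differed there from the mean of the other 3 Cebpg-/- arrays by -0.15, -0.12 and -0.06. Of the 69 patterning factors, 5 lay over 0.5 units above that mean and 1 over 0.5 units below. The cartilage collagen Col2a1 read 5.73, 5.31, 6.60 and 4.68 in Cebpg-/- samples, against 4.53, 4.03, 4.13 and 5.08 in WT samples. The mean of 8 cartilage and bone markers was 3.21, 3.08, 3.36 and 3.00 in Cebpg-/- samples, against 3.00, 2.88, 2.88 and 3.12 in WT samples, and 2 of them were above background. The other one, the cartilage factor Sox9, was lowest of the Cebpg-/- arrays on replicate 3, at 4.92, against 5.10 to 5.28 on the rest, and lay between 4.75 and 4.93 in WT samples. The part of limb or cartilage cells in the HOX values was not tested. With the leukocyte marker mean as a covariate 0 HOX genes passed, and the change of Hoxd13 was 0.25.

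TALE proteins bind DNA together with HOX proteins. Of 8 measured TALE genes 0 were higher and 1, Pknox2, was lower, against 8.62% and 3.99% of all genes. Their median change was -0.21, against -0.00 over all genes. Pknox2, which was dim, read 3.61, 3.87, 3.32 and 3.84 in Cebpg-/- samples, against 4.01, 4.00, 4.22 and 4.19 in WT samples (change -0.45, limma adjusted p 0.0359). Without Cebpg-/- replicate 1 or 3 or WT replicate 1, 3 or 4 its limma adjusted p lay between 0.0615 and 0.0936. Meis1, Meis2, Meis3, Pbx2 and Pbx3 did not pass after adjustment. At an unadjusted limma p under 0.05 stood 5 of the 8 TALE genes, against 28.4% of all genes. These were Pknox2, Pbx3, Meis2 and Meis3, which read lower in Cebpg-/- samples, and Pbx2, which read higher.

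Of 28 measured Polycomb genes 4 were higher and 1 lower, against 8.62% and 3.99% of all genes, with a median change of 0.05. Pcgf5, a subunit of a Polycomb repressive complex, read 6.56, 6.39, 6.52 and 6.52 in Cebpg-/- samples, against 6.22, 6.26, 6.23 and 6.18 in WT samples (change 0.28, limma adjusted p 0.0142). It passed without each array in turn, though the mean of its probe sets changed by 0.11 and did not pass (limma adjusted p 0.208), nor did its change of 0.21 with the leukocyte covariate (limma adjusted p 0.196). Aebp2 (0.25), Scmh1 (0.31) and Ezh1 (0.36) rose and Phc1 fell by 0.20, and each of these calls was lost without at least 1 array. With probe sets averaged, Scmh1 changed by 0.05 (limma adjusted p 0.625) and Ezh1 by 0.03 (limma adjusted p 0.810). Of 15 Trithorax and histone demethylase genes 0 were higher and 2 lower, Dot1l (-0.33) and Kdm6b (-0.35), with a median of -0.09, against the same 8.62% and 3.99%. These calls too were lost without at least 1 array.

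Of 20 genes of retinoid and caudal control 0 were higher and 2 lower, against 8.62% and 3.99% of all genes, with a median of -0.04. Aldh1a3, an enzyme that makes retinoic acid, read 5.59, 6.25, 5.61 and 5.98 in Cebpg-/- samples, against 7.68, 6.69, 7.68 and 7.91 in WT samples. All Cebpg-/- values lay below all WT values, and the change of -1.63 (limma adjusted p 0.00364) passed without each array in turn. With the leukocyte mean as a covariate it was -1.31 with a limma adjusted p of 0.0630. Rarb, a retinoic acid receptor that was dim, changed by -0.36, and this call was lost without at least 1 array. Of 3 non-coding genes of the HOX clusters measured 0 passed. Hoxa11os, antisense to Hoxa11 and dim, read 2.80, 2.97, 3.71 and 2.79 in Cebpg-/- samples, against 2.97, 2.78, 2.98 and 3.03 in WT samples, again highest on Cebpg-/- replicate 3. Hoxb5os, within cluster B, changed by 0.16 (limma adjusted p 0.515).

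Of 69 other positional and patterning factors 3 were higher and 2 lower, with a median of -0.04, and both counts are below the shares of all genes (8.62% and 3.99%). The limb and craniofacial factor Dlx2 read 4.87, 5.29, 4.85 and 5.09 in Cebpg-/- samples, against 4.26, 4.06, 3.61 and 4.03 in WT samples (change 1.03, limma adjusted p 0.00217). Msx2, a target of bone morphogenetic protein signals, read 5.28, 4.97, 5.48 and 5.13 in Cebpg-/- samples, against 4.18, 4.19, 3.98 and 4.63 in WT samples (change 0.97, limma adjusted p 0.00336). Both groups lay apart for each gene, and both calls held without each array in turn. With the leukocyte covariate Dlx2 changed by 1.30 (limma adjusted p 0.00315) and Msx2 by 0.80 (limma adjusted p 0.0579). Shox2, a factor of the upper limb segment, read 6.64, 7.29, 6.61 and 7.13 in Cebpg-/- samples, against 7.61, 7.99, 7.90 and 7.37 in WT samples (change -0.80, limma adjusted p 0.0184). Its limma adjusted p lay between 0.0544 and 0.0566 without Cebpg-/- replicate 1 or 3 or WT replicate 3. The dim Foxf2 changed by 0.39 (0.19 with probe sets averaged), and Meox1, a somite factor, by -0.84, a call lost without at least 1 array. Of 15 called genes of these lists that are named here, 14, all but Dlx2, did not pass with the leukocyte covariate (limma adjusted p 0.0579 to 0.356). Such losses were not particular to these lists. With that covariate calls over all genes fell from 1569 higher and 726 lower to 228 and 106.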

How the data were processed

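Total RNA of 8 fibroblast samples, 4 Cebpg-/- and 4 WT, was measured on 1 array each, with groups taken from the sample titles. The deposited values are on a log2 scale and come from RMA as run by the authors, according to the submitters' processing notes, without version or settings. RMA usually quantile-normalizes arrays and compresses changes of dim probe sets. No scanner files were used here, and the number of arrays limits the precision.

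Of 45101 probe sets 64 controls were left out. Gene names came from the platform annotation, with 1 gene for 34945, several for 932 and none for 9160. Symbols of 34741 were updated through a RefSeq table of GRCm38.p6, and 204 were kept. A linear model with genotype as its only term was run on 45037 probe sets (limma 3.58.1, R 4.3.3, eBayes, two-sided). Benjamini-Hochberg adjustment covered 18193 genes, with calls at an adjusted p under 0.05. The code was first checked on simulated arrays with 200 altered genes.

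The members and all gene lists (TALE cofactors, patterning factors, Polycomb, Trithorax, retinoid and caudal control, HOX non-coding genes, genes of absent tissues, and markers of cell types) were chosen with earlier results of these data known. Named genes are every measured HOX gene, Cebpg and up to 4 called members of each other list with the lowest p; others were chosen after their values were seen. Samples sharing a replicate number did not deviate together, so the numbers were not used as pairs.

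Results were recomputed after quantile normalization, median subtraction per array, removal of dim probe sets and averaging of all probe sets per gene, and with an intensity trend with robust variance, array weights, a replicate block, the leukocyte or the Y-linked mean as a covariate, a threshold of 0.1, and leaving out each array.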

Additional observations from a re-analysis of the deposited data

Results flagged for a closer look

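Of 118 groups of 4 arrays checked, 8 had an array set apart from the other 3 by a gap past Dixon's critical value for the group's range, and chance alone flags about 1 in 20 groups, or 5.9 here. For Hoxd13, Cebpg-/- replicate 3 at 6.48 stood above 4.77 to 4.96 on the other Cebpg-/- arrays. For Hoxd10, Cebpg-/- replicate 3 was highest at 3.972, against 3.279 on the next, and WT replicate 4 was highest in its group at 3.449, against 3.18 on the next. For Hoxd3, which was dim, WT replicate 1 was lowest at 1.547. The mean of HOX genes above background was lowest on Cebpg-/- replicate 4 at 5.549, with the other Cebpg-/- arrays between 5.677 and 5.692. Among genes of the other lists, Meox1 was highest on Cebpg-/- replicate 3 at 4.416, Rarb on Cebpg-/- replicate 2 at 2.781, and Scmh1 was lowest on WT replicate 3 at 5.129. No cause was tested for any of these.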

How the results depend on the processing

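With 17 settings besides the one reported, 0 HOX genes were called higher under any of them. The count of HOX genes called lower, 1 as reported, was 2 with probe sets averaged per gene (Hoxb2 and Hoxb3), 0 with the leukocyte mean as a covariate, and 0 to 1 with an array left out, 0 without Cebpg-/- replicate 4 or WT replicate 3. Over all genes, 1569 were higher and 726 lower as reported. The count higher was 978 with the replicate block, 228 with the leukocyte covariate and 780 (without WT replicate 1) to 1690 (without Cebpg-/- replicate 2) with an array left out. The count lower was 106 with the leukocyte covariate, 1266 at the threshold of 0.1 and 395 (without Cebpg-/- replicate 1) to 969 (without WT replicate 4) with an array left out. Calls were 68.4% higher as reported, 56.7% after quantile normalization and 78.9% after subtraction of array medians. With an array left out, the median change ran from -0.0531 to 0.0481 for all HOX genes, from -0.0531 to 0.0291 for cluster B and from -0.155 to -0.0617 for anterior genes, and it was 0.0326 for cluster B with dim probe sets left out, where 24 HOX genes remain. Of 552 pairs of a HOX gene and a setting, 22 (12 genes) had the sign turned, all uncalled in both. Samples with the same number correlated at -0.36, 0.15, 0.02 and 0.05 over all genes, so the numbers pair nothing, and with the replicate block Hoxb2 kept its call (limma adjusted p 0.046). The causes were not tested. The brightness of each probe set over its background limits the dim members.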

Other observations

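Other patterning genes that stood apart on Cebpg-/- replicate 3, beside Tbx4, were chosen after their values were seen. Lhx9, a factor of the limb bud and gonad, read 5.17, 5.27, 6.24 and 5.02 in Cebpg-/- samples 1 to 4, against 4.30, 5.52, 4.93 and 4.65 in WT samples 1 to 4. Foxc1, a mesoderm factor, read 5.47, 4.86, 5.89 and 5.01 in Cebpg-/- samples, against 4.60, 4.78, 4.74 and 5.36 in WT samples. Lhx2, a limb bud factor that was dim, was 0.54 above the mean of the other 3 Cebpg-/- arrays, and Pitx1 0.68 above it. Of the 69 patterning genes, 5 lay over 0.5 units above it and 1, the dim Lhx8, lay 0.61 below it. Emx2, a factor of the shoulder girdle and urogenital tract, lay 0.49 below it. Genotypes overlapped for all of these genes and none passed the test.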
